A study of Homo sapiens with 6 samples.

Results

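The 500 longest distal H3K27ac domains of the control library of MV4-11 were described in 4 H3K27ac peak lists. MV4-11 is an acute myeloid leukemia (AML) line of monocytic type with a KMT2A fusion, and Kasumi-1, the other line, carries a RUNX1::RUNX1T1 fusion. Each line had an NC library and a library of cells carrying a lentiviral hairpin against ANP32B (sh-ANP32B), so that there were 4 lists, with 1 list per group. The labels call the NC cells untreated, whereas the methods of the study describe a control hairpin carried under puromycin selection. The mark H3K27ac, which is acetylated lysine 27 on histone H3, was profiled by CUT&Tag, in which an antibody brings the transposase Tn5 to the marked chromatin. Replicates were merged before peaks were called, so no difference below has a replicate check and no test between conditions was possible. The lists give peak positions and lengths on hg38 without read numbers, so the depth of each library is unknown and a length says nothing of the height of a peak.

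Members were chosen by MV4-11 NC peak length. Peaks on chromosomes 1 to 22 and X that did not touch a window of 2500 bases to each side of a protein-coding gene start (canonical GENCODE v44 transcript) were called distal, and distal peaks at most 12500 bases apart were stitched into 1 domain. The 17302 distal peaks of MV4-11 NC formed 9757 domains. The 500 with the greatest summed peak length were kept, which is 5.12% of the domains. Bases under distal peaks inside these fixed spans were then counted in each of the other 3 lists. The MV4-11 NC values, and every ratio that has them in it, follow in part from this choice and are given as a description. A domain carries the name of the protein-coding genes whose body it overlaps, or otherwise of the gene with the nearest start, and the name does not show which gene it acts on.

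Enhancers are stretches of DNA, often far from the genes they act on, where transcription factors bind and bring in coactivators such as the acetyltransferases that mark H3K27. Clusters of enhancers with much H3K27ac, often called super-enhancers, are known to lie close to genes that set cell identity. In myeloid leukemia cells such clusters are known near transcription factor genes including RUNX1, CEBPA and MYB.

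Sequence is shown for 5 domains that the results below turn on, as the middle 300 bases of the longest MV4-11 NC peak of each domain, read from hg38 on the plus strand. Capitals mark the letters GAGGAA (the core of PU.1 and other ETS sites), TGTGGT (the RUNX core) and TTGCNNAA (C/EBP) on either strand. The CEBPA and RUNX1 domains stand for the lineage transcription factors among the longest domains. The window of the CEBPA domain, at chr19:33267106-33267405, is intergenic. That of the RUNX1 domain, at chr21:34909269-34909568, lies inside the RUNX1 gene. MRTFA, FKBP5 and RPN1 are examples from the 19 domains with at most 0.5 of their NC length in MV4-11 sh-ANP32B. Their windows, at chr22:40436414-40436713 inside MRTFA, at chr6:35727364-35727663 inside FKBP5 and at chr3:128603827-128604126 in the intergenic stretch between RPN1 and GATA2, had 0 bases under an MV4-11 sh-ANP32B peak. Other windows of that class were kept: in GALNT2, TMTC4, IGLL5 and GRK3 all 300 bases were under an MV4-11 sh-ANP32B peak. None of the 5 windows shown touched an annotated exon.
CEBPA: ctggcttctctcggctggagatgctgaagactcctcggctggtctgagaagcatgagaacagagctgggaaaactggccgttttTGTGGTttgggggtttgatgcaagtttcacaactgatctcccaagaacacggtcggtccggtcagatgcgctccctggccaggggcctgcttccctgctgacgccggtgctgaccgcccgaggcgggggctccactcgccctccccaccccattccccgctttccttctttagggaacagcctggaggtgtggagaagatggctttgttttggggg
RUNX1: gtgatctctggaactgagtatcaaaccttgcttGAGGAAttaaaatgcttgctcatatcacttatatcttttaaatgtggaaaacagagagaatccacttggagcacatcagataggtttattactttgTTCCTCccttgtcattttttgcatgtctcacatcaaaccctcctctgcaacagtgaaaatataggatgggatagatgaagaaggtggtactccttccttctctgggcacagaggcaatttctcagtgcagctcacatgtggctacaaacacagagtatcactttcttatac
MRTFA: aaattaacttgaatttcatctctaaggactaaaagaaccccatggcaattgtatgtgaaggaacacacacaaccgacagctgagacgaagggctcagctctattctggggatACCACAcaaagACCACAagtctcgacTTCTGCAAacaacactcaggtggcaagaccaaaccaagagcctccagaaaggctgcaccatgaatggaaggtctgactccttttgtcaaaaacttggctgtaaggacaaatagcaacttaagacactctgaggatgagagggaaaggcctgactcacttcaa
FKBP5: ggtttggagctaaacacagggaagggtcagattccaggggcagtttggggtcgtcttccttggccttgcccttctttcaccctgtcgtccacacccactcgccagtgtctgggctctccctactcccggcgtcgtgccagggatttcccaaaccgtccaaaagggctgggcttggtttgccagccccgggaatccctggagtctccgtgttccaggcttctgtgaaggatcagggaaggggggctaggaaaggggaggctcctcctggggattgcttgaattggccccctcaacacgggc
RPN1: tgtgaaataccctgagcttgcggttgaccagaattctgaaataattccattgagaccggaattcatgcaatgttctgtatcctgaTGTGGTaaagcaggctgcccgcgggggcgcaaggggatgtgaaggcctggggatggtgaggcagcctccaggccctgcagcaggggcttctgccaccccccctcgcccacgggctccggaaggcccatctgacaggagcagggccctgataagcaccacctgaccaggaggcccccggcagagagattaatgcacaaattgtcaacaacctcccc

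The domains were long clusters of peaks. Summed peak length ran from 6435 to 57876 bases, with a median of 9252 bases, against a median of 1049 bases in the other 9257 domains. A domain held a median of 6 peaks over a median span of 23737 bases, and a median of 42.8% of the span lay under peaks. Only 7 of the 500 were a single peak, against 67.2% of the other domains, and 82 held at least 10 peaks. Together they held 3224 peaks and 28.4% of all distal peak bases of MV4-11 NC, spread over 13.6 Mb of spanned genome.

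The threshold fell within a smooth stretch of the rank curve. QSOX1, at rank 499, had 6436 bases and LRMDA, at rank 500, had 6435 bases. The next domains out, DBNDD1 and KIAA0319L, had 6422 and 6408 bases. The point at which a line parallel to the overall slope touched the curve, a usual way to set a super-enhancer threshold, lay at 531 domains and 6229 bases.

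**Figure D1:**
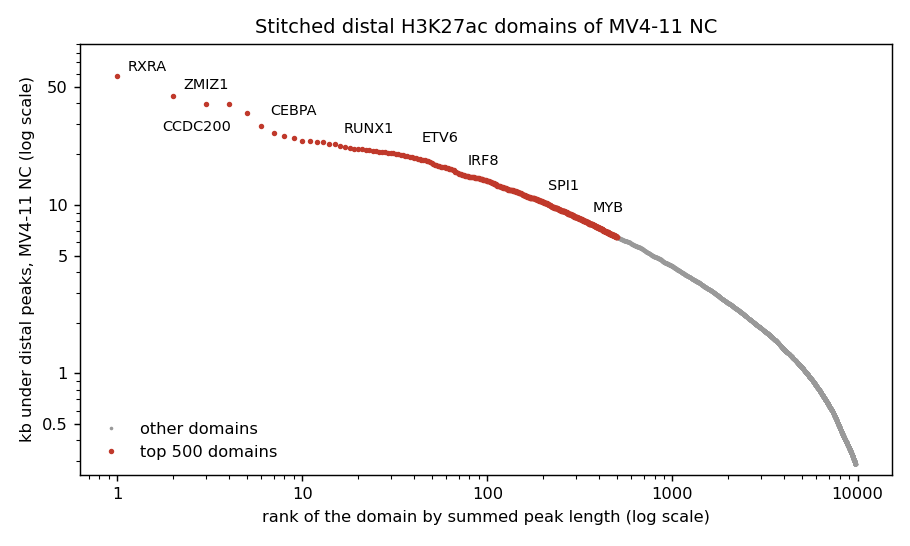
Summed distal H3K27ac peak length of each MV4-11 NC domain in kb (y axis, log scale) against its rank (x axis, log scale). Red points are the 500 top domains, gray points the other 9257. The 500 run from 57876 bases at RXRA down to 6435 bases, with no step at the threshold.

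As to position, 371 of the 500 (74.2%, Wilson 95% interval 70.2 to 77.8%) overlapped the body of a protein-coding gene, against 60.7% (59.7 to 61.7%) of the other domains. A longer span meets a gene more easily, and the part of span length in this difference was not tested. The other 129 were intergenic, at a median of 69250 bases from the nearest protein-coding start, and 49 of them lay over 100000 bases away. The span of 51 domains crossed a promoter window, whose own peaks were not counted. Starts of genes of other types, such as long noncoding RNAs, lay inside 210 domains (42%). Chromosomes 20 and 10 had the highest share of their domains among the 500 (9.06% and 8.27%), and chromosome 4 the lowest (2.67%).

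The longest domain was that of RXRA, which encodes the nuclear receptor that pairs with retinoic acid, vitamin D and other receptors. Its domain, at chr9:134331829-134459749 inside the gene, held 28 MV4-11 NC peaks. They covered 57876 bases in MV4-11 NC and 51137 with sh-ANP32B, and the same span had 38495 bases in Kasumi-1 NC and 37045 with sh-ANP32B. ZMIZ1, a transcriptional coactivator of the PIAS-like family, had 44358 bases in MV4-11 NC and 53992 with sh-ANP32B, where it was the longest domain of all. In Kasumi-1 the ZMIZ1 span had 41308 bases in NC and 40446 in sh-ANP32B, and it overlapped the domain of rank 2 in both Kasumi-1 lists. CEBPA, the factor that directs granulocyte and monocyte fate, had a domain at chr19:33248276-33299647 that ended 2887 bases from its start. That domain had 29423 bases in MV4-11 NC, 24601 in MV4-11 sh-ANP32B, 29407 in Kasumi-1 NC and 29380 with sh-ANP32B. With peaks that touch a promoter window counted too, the CEBPA span still had 29423 bases in MV4-11 NC, but 39252 in Kasumi-1 NC and 39032 with sh-ANP32B. The 3 spans were thus long in both lines, and with sh-ANP32B in MV4-11 RXRA and CEBPA were shorter and ZMIZ1 longer.

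AHRR, the repressor of the aryl hydrocarbon receptor, had 39498 bases in MV4-11 NC and 34518 with sh-ANP32B at rank 4, and NACC2, a BTB-domain repressor, had 24022 and 15671 bases at rank 11. Among surface proteins, CD93, a receptor of myeloid and endothelial cells, had 26811 and 24852 bases. The span over TNFRSF8 and TNFRSF1B, receptors of the tumor necrosis factor family, had 25483 and 22529 bases. LY86, which partners CD180 at the surface of immune cells, had 23621 and 20980 bases. The span over SUFU and TRIM8, a brake on Hedgehog signaling and a ubiquitin ligase, had 24067 and 18858 bases. Kasumi-1 NC had at least 17695 distal bases in each of these 6 spans.

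MAD1L1, a spindle checkpoint gene, held the domain of rank 5, with 34869 bases in MV4-11 NC and 22660 with sh-ANP32B. The rank 3 domain, named after CCDC200, covered a tandem array with the starts of 13 annotated copies of the U2 small nuclear RNA gene. Its 32 peaks had 39647 bases in MV4-11 NC and 39215 with sh-ANP32B. Reads from near-identical copies cannot be assigned to 1 of them, so the length of this domain is uncertain. A further pair of domains, at ranks 129 and 162, lay on the short arm of chromosome 21, where much of the sequence is repeated elsewhere.

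Gene lists for the lineage were then set beside the domains. A gene was linked to a domain that overlapped its body or lay within 50 kb of its start, and 781 of 19970 protein-coding genes (3.91%) were linked to 1 of the 500. Of 18 stem and progenitor transcription factors, 6 were linked: RUNX1, ETV6, FLI1, BCL11A, MYB and IKZF1. Myeloid transcription factors had 5 of 22 (CEBPA, RARA, IRF8, FOS and SPI1) and growth factor and cytokine receptors 4 of 19 (TNFRSF1B, TGFBR2, IL6R and IL17RA). Of 27 monocyte genes, 3 were linked (ITGB2, SIRPA and LYZ), as were 3 of 23 HOX genes, cofactors and KMT2A fusion targets (UBASH3B, MYB and MBNL1), 2 of 24 chromatin and BET genes (AFF1 among them) and 2 of 20 signaling feedback genes (CISH and PIM3). None of 16 neutrophil granule, 16 erythroid and megakaryocyte or 15 B cell genes was linked, and 1 of 16 T cell genes was: CD7, through the CSNK1D domain 18718 bases from its start. Long genes are linked more easily, and the part of gene length in these counts was not tested.

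**Figure D2:**
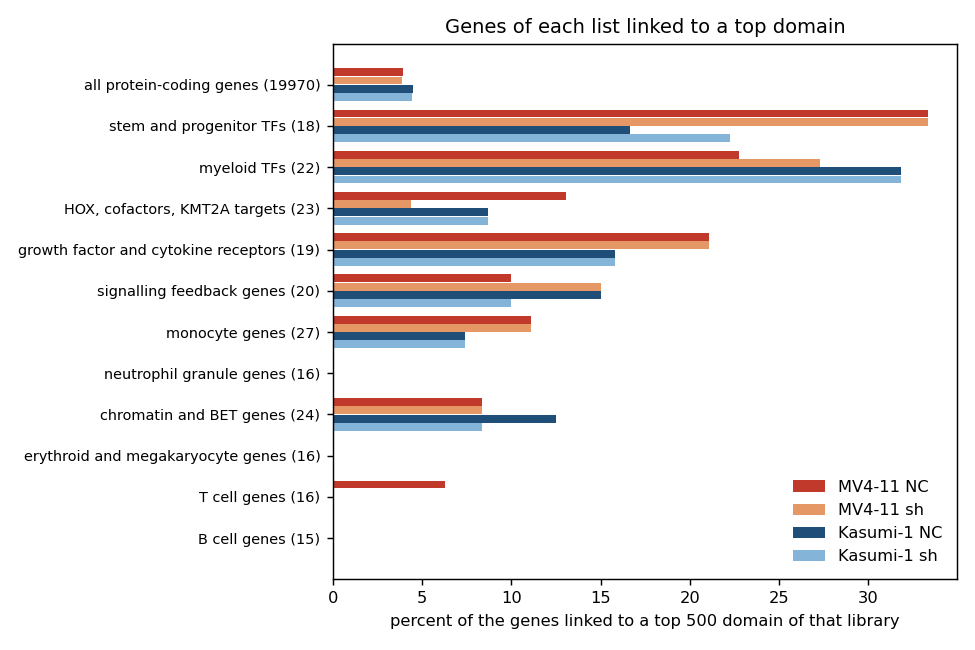
Percent of the genes of each list (number of genes in brackets) linked to a top 500 domain, each bar using the top 500 domains of its own library. The stem and progenitor list stands at 33.3% in both MV4-11 libraries, against 3.91% of all protein-coding genes in MV4-11 NC, and the neutrophil granule, erythroid and B cell lists are at 0 in all 4 libraries.

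RUNX1, a founding factor of definitive blood formation, held a pair of domains. The first, of rank 15, had 22900 bases in MV4-11 NC, 21384 in MV4-11 sh-ANP32B, 12762 in Kasumi-1 NC and 15560 with sh-ANP32B. The second, of rank 50, had 17721, 18328, 9320 and 8440 bases in the same order. Both overlapped the same MV4-11 sh-ANP32B domain, which ranked 3 in that list. ETV6, another factor rearranged in leukemia, had 18770 and 19688 bases in the MV4-11 libraries and 7381 and 8206 in those of Kasumi-1. Both RUNX1 domains and the ETV6 domain were thus longer in each MV4-11 library than in either Kasumi-1 library. MYB, which maintains progenitor growth, had 8201 bases in MV4-11 NC and 4628 with sh-ANP32B, and its rank went from 322 to 743. In Kasumi-1 the MYB span had 3102 and 4118 bases. The 4673-base peak inside MYB was present as 3 shorter peaks in MV4-11 sh-ANP32B, of 819, 304 and 1556 bases. BCL11A, a repressor in lymphoid and progenitor cells, had 9605 and 5427 bases in the MV4-11 libraries, and FLI1, an ETS factor, had 11751 and 8420. RUNX1 and ETV6 thus had MV4-11 ratios of sh-ANP32B to NC close to 1 (0.934, 1.03 and 1.05), whereas those of FLI1, BCL11A and MYB were 0.717, 0.565 and 0.564.

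Among the myeloid factors, IRF8, which directs monocyte and dendritic cell fate, had 15711 bases in MV4-11 NC and 11356 with sh-ANP32B. SPI1, the gene of PU.1, had 9587 and 8862 bases, and RARA, the retinoic acid receptor, 21320 and 16583. FOS, part of AP-1, had 10949 and 11284 bases. In Kasumi-1 the IRF8 span had 24194 bases in NC and 25942 in sh-ANP32B, those of SPI1 and FOS had 10002 and 9588 and 11440 and 12352, and that of RARA had 20915 and 23543. In Kasumi-1 NC, IRF8, SPI1 and FOS were thus longer than in MV4-11 NC and RARA was shorter. Of the monocyte genes, the span over PTTG1IP and ITGB2, the latter the beta chain of leukocyte integrins, had 21087 bases in MV4-11 NC and 26202 with sh-ANP32B. LYZ, the lysozyme of monocytes and neutrophils, had 7148 and 6755 bases in MV4-11 and 1849 and 2436 in Kasumi-1.

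The labelled line was checked against its markers. CEBPA, IRF8, SPI1 and LYZ were linked to 1 of the 500, but HOXA9 and HOXA10 (rank 1469), MEIS1 (rank 1111), CSF1R (rank 1503), CD14 (rank 2460) and FLT3 (rank 2985) had their best domain outside. CEBPB (rank 677), ITGAM (rank 6841), CD33 (rank 6939) and KLF4 (rank 7376) were outside as well. The span of MEF2C, at rank 2103, had 2522 bases in MV4-11 NC and 0 in Kasumi-1. Of the 4 Kasumi-1 markers, CD34 was linked to a domain of rank 143 with 11968 bases in MV4-11 NC and 11525 in Kasumi-1 NC. The best domain of KIT, at rank 3892, had 1435 bases in MV4-11 NC and 896 in Kasumi-1 NC, that of POU4F1, at rank 3825, had 1466 and 0, and no MV4-11 NC domain was linked to RUNX1T1. These spans were chosen in MV4-11, and none of the 3 had more bases in Kasumi-1 NC. Peak lists hold no RNA level, so the knockdown itself could not be checked in them. None of 9 genes named by the study was linked to 1 of the 500. The best domain of MYC ranked 2572 (2120 bases in MV4-11 NC and 1281 with sh-ANP32B), and that of ANP32B ranked 6283 (781 and 0 bases).

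The comparison of the MV4-11 libraries asked how much of each domain was still under peaks with sh-ANP32B. The 500 spans held 5505706 bases in NC and 4643129 in sh-ANP32B, a ratio of 0.843, and 3224 and 2993 peaks. The median ratio over domains was 0.839, with quartiles of 0.726 and 0.950 and a range of 0.0799 to 1.58. Length was lower in sh-ANP32B in 428 domains (85.6%), close to the 83.2% of all 9757 domains, and higher in 72 (14.4%), against 6.69% of all domains. In the 500 domains ranked next, 428 were lower and 70 higher. Bases were counted only inside the NC span, so a domain of a single peak, as 67.2% of the other domains were, cannot be higher. The 14.4% and 6.69% are thus not a like comparison. Length was at most 0.5 of the NC length in 19 domains (3.8%, Wilson interval 2.45 to 5.86%), against 35.2% of all 9757 domains, and reached 2 times the NC length in 0, against 0.0717% of all domains. No domain was without an sh-ANP32B peak, whereas 2274 of the other domains were. Since the domains were chosen as the longest, a small count of large losses follows in part from that choice and is not read as a result about them.

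**Figure D3:**
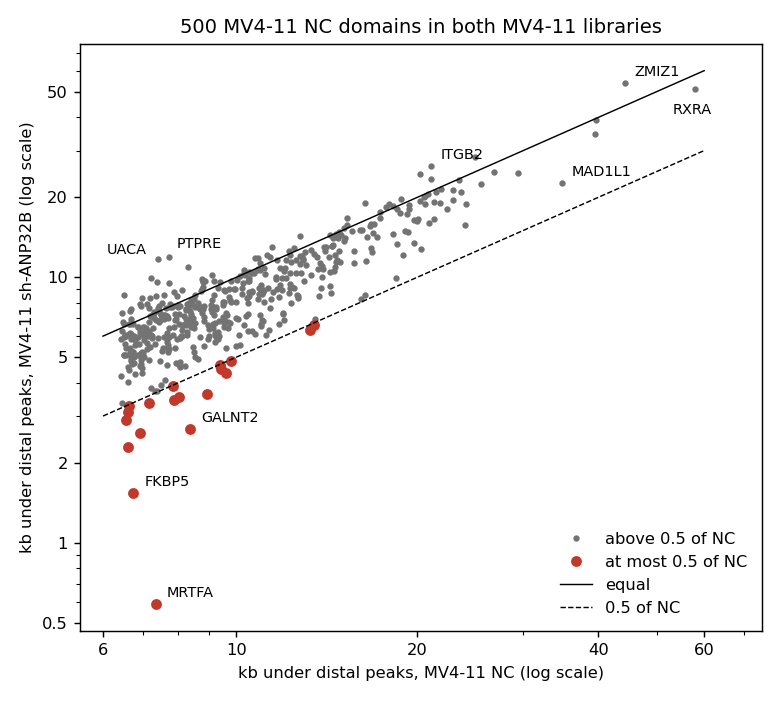
Kb under distal peaks in each of the 500 spans in MV4-11 NC (x axis) and MV4-11 sh-ANP32B (y axis), both on log scales, with lines at equal length and at 0.5 of the NC length. Most points lie between the lines; the 19 red points at or under the lower line all have under 14 kb in NC, and MRTFA is the lowest.

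The size of this ratio depended on the library in which the domains were chosen. When the 500 longest domains were instead chosen in MV4-11 sh-ANP32B, their spans had a summed ratio of sh-ANP32B to NC of 0.989, with NC longer in 258 and shorter in 241. With domains built and chosen from both MV4-11 lists together, the summed ratio was 0.897 and the median 0.910, and 354 of 500 were shorter in sh-ANP32B. Of these 500, 453 overlapped a domain chosen in NC. Over all distal peaks, those outside NC spans included, the MV4-11 ratio was 0.866, which is not a like measure to the 0.843 of the 500. Counted inside NC spans, the ratio was 0.739 for all 9757 domains and 0.794 for the 500 ranked next. These values too follow in part from choosing spans in NC, and the part of domain length in them was not tested. Each of these sums was below 1, and that of the domains chosen in sh-ANP32B was the closest to 1. In Kasumi-1, the 500 domains chosen by the same rule in its own NC list had a summed ratio of 1.01, with 216 shorter in sh-ANP32B.

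The 100 longest domains had the highest median ratio. The median ratio was 0.901 for ranks 1 to 100 and 0.817, 0.809, 0.869 and 0.842 for the 4 following classes of 100 ranks, and domains at most 0.5 of NC numbered 0, 2, 5, 5 and 7. In the 500 domains that ranked next, the median was 0.801 and 47 (9.4%) were at most 0.5. By ranking, 404 of the 500 (80.8%) overlapped a domain among the 500 longest of MV4-11 sh-ANP32B. The other 96 had their best overlap there at a median rank of 693, so most lay not far past that threshold, though the lowest was at rank 6582. Longer spans meet other domains more easily, and the share over all MV4-11 NC domains was not counted.

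Inside the domains, the peaks without any sh-ANP32B overlap were mostly short. Of the 647 member peaks under 500 bases, 61.5% (57.7 to 65.2%) had no overlapping MV4-11 sh-ANP32B peak, against 60.5% of 4085 such peaks in other domains. The share was 29.2% against 31.3% at 500 to 1000 bases, 6.78% against 8.02% at 1000 to 2000 bases and 1.01% against 1.31% at 2000 to 4000 bases. None of the 311 member peaks of at least 4000 bases was without an overlap. Over all widths the shares were 22.2% and 31.0%, but within each width class the intervals of members and other domains overlapped. In the 467 domains with at least 3 peaks, the longest peaks kept 86.0% of their bases under sh-ANP32B peaks and the other peaks 69.4%. Peaks at the ends of a domain kept 75.4% of their bases and those between them 76.2%. Without any sh-ANP32B overlap were 25.5% (22.8 to 28.4%) of the peaks at the ends and 21.2% (19.6 to 22.99%) of those between them. Of the sh-ANP32B bases in the spans, 9.34% lay outside NC peaks.

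The 19 domains at most 0.5 of NC were named after their values were seen, apart from the 6 lowest. MRTFA, a coactivator of serum response factor, had 7348 bases in MV4-11 NC and 587 with sh-ANP32B, a ratio of 0.0799. Its 6 peaks included 1 of 3317 bases that had no sh-ANP32B peak at all, the only such case among the 467 longest peaks above. The window printed above comes from this peak and holds 2 RUNX matches and 1 C/EBP match. FKBP5, a co-chaperone of the glucocorticoid receptor and a classic target of it, had 6739 and 1537 bases. Of its 3 NC peaks, the 2604-base and 594-base peaks had no sh-ANP32B peak, and the 3541-base peak was present as pieces of 774 and 763 bases. The GALNT2 domain of rank 307, in a gene that starts mucin-type O-glycosylation, had 8386 and 2679 bases, and a second GALNT2 domain, of rank 373, had 7603 and 4104. These were the lowest ratios, and in Kasumi-1 the same spans had more bases in sh-ANP32B than in NC (9361 and 11983 for MRTFA, 9672 and 10329 for FKBP5, 8161 and 10317 for GALNT2). Not all of the 19 were longer there. Kasumi-1 had fewer bases in sh-ANP32B than in NC for GRK3 (9453 and 9256), IGLL5 (9061 and 8232) and SREBF1 (8166 and 8068). The same held for COQ8A (3787 and 3412), GTSF1 (3558 and 2967) and RPN1 (9770 and 9416), and the rest of the 19 had more.

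TMTC4, a mannosyltransferase of the endoplasmic reticulum, had 6603 bases in MV4-11 NC and 2300 with sh-ANP32B. IGLL5, at the immunoglobulin lambda locus, had 6922 and 2599 bases. GRK3, a kinase of activated receptors, had 8937 and 3644. The domain named after RPN1, a subunit of the oligosaccharyltransferase, had 6554 and 2898 bases in MV4-11 and 9770 and 9416 in Kasumi-1. It lies between RPN1 and GATA2, a stretch known for a distal GATA2 enhancer that is brought to MECOM by rearrangements of chromosome 3 in AML. A pair of sterol regulators was among the 19: SREBF1, the transcription factor of lipid synthesis, had 7869 and 3452 bases, and INSIG1, which retains its protein product in the endoplasmic reticulum, had 6596 and 3099. Signaling proteins were ARRB1 (ratio 0.476), IFNAR2 (0.443), PAG1 (0.470), ABR (0.495) and TNFAIP8 (0.451). The others were KCNK5, COQ8A, GTSF1 and a pair of MAD1L1 domains, with ratios of 0.477 to 0.496. In all 19 the ratio was at most 0.5 also when promoter peaks in the span were counted.

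Some genes held several domains. The 3 domains in MAD1L1 had 57930 bases in MV4-11 NC and 33832 with sh-ANP32B, a ratio of 0.584, with 43889 and 44021 in Kasumi-1. The pair in SH3KBP1, an adaptor of receptor endocytosis, had a ratio of 0.543. By contrast the 3 domains in ZMIZ1 had a ratio of 1.09, those in RAPGEF1, an exchange factor for RAP1, 1.06, and the pair in RUNX1 0.978. In all, 27 gene bodies overlapped at least 2 of the 500 domains. Summed over the members of a chromosome, the ratio was lowest on X (0.738) and chromosome 7 (0.744) and highest on chromosome 15 (0.932).

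Of the 72 domains longer in MV4-11 sh-ANP32B, the UACA domain of rank 391, named after a regulator of apoptosome activity, had the highest ratio, with 7396 bases in NC and 11709 in sh-ANP32B (1.58). Another domain named after UACA, of rank 323, had 8192 and 7162 bases. PTPRE, a receptor-type tyrosine phosphatase, had 7731 and 11945 bases. JUN, the partner of FOS in AP-1, had 6501 and 8569 bases, with 6464 and 6446 in Kasumi-1. METTL9, a histidine methyltransferase, had a ratio of 1.38, HIPK2, a nuclear kinase, 1.31 and DUSP10, a phosphatase of stress kinases, 1.30. The domains with the highest ratios were thus mostly near the lower end of the 500 (ranks 313 to 492).

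The comparison with Kasumi-1 asked which domains were shared by the lines. Kasumi-1 NC had 4561728 distal bases in the 500 spans, 82.9% of the MV4-11 NC bases. At least 50% of the MV4-11 NC length was reached in 380 domains (76%, 72.1 to 79.5%), against 40.5% of all domains, and at least 100% in 174 (34.8%), against 20.1%. In the 500 domains ranked next, these numbers were 339 and 157. Just 7 domains (1.4%) had no distal Kasumi-1 NC base, against 23 of the 500 ranked next and 46.1% of all other MV4-11 NC domains. A domain among the 500 longest of Kasumi-1 NC was overlapped by 300 (60%), and the share over all MV4-11 NC domains was not counted. Longer spans meet Kasumi-1 peaks and domains more easily, and the part of span length in these counts was not tested. Member peaks were without a Kasumi-1 NC overlap in a lower share than peaks of like width elsewhere in each class below 4000 bases. Under 500 bases, 62.8% (59.0 to 66.4%) of member peaks had none against 69.4% (68.0 to 70.8%) of others. At 1000 to 2000 bases, 22.1% (19.4 to 25.2%) of member peaks had none against 33.4% (31.8 to 34.9%) of others, and at 500 to 1000 bases 42.3% (39.1 to 45.6%) against 54.3% (53.0 to 55.7%). The shares were 8.74% (6.73 to 11.3%) and 13.4% (11.6 to 15.5%) at 2000 to 4000 bases, and from 4000 bases on they were 3.22% (1.76 to 5.82%) and 3.604% (1.41 to 8.90%), with overlapping intervals. The intervals cover counting error only, and peaks of 1 domain are not independent.

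In 14 domains the Kasumi-1 NC length was under 10% of the MV4-11 NC length, and these were named after their values were seen. ZEB2, a repressor needed in monocyte and dendritic cell development, was the longest, with 22415 bases in MV4-11 NC, 18115 in MV4-11 sh-ANP32B, 2116 in Kasumi-1 NC and 3373 with sh-ANP32B. Innate immune genes among the 14 were CXCL8, the neutrophil chemokine, with 10861, 10703, 358 and 0 bases, and TLR4, the receptor of bacterial lipopolysaccharide, with 8415, 7140, 0 and 385. VSIG4, a complement receptor of macrophages, had 16727, 12848, 1448 and 2129 bases. The domains named after RMDN2, PTGER4, a receptor of prostaglandin E2, and SLX9 had 0 bases under any Kasumi-1 peak. In RMDN2 the 5 NC peaks were met by 5 sh-ANP32B peaks, with 8046 and 7796 bases, and in PTGER4 the lengths were 7404 and 7669. SLX9, which lies next to ITGB2, had 9205 and 5688 bases. GRK2 and HTRA3 had 0 distal bases in Kasumi-1 as well, but there the peaks reached a promoter window and were not counted as distal. With promoter peaks included, their spans had 15282 and 10039 bases in Kasumi-1 NC. The others were ATP8B4, DMXL2, SEL1L, GPC5 and VAV3.

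At the other end, INPP5A, a phosphatase of inositol trisphosphate, had 10973 bases in MV4-11 NC and 26190 in Kasumi-1 NC (239%). LITAF and GRAMD4 had 201% and 199.9% of their MV4-11 NC length in Kasumi-1 NC. Blood factors in the middle range were ETV6 at 39.3%, TGFBR2, the receptor of transforming growth factor beta, at 19.8% and the RUNX1 domains at 55.7% and 52.6%. The MV4-11 ratio of sh-ANP32B to NC was also set beside the Kasumi-1 share. Its median was 0.911 in the 14 domains under 10%, 0.833 at 10 to 50%, 0.836 at 50 to 100% and 0.849 at 100% or more. Domains at most 0.5 of NC in MV4-11 numbered 0 of 14, 3 of 106, 5 of 206 and 11 of 174 in the same classes.

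With sh-ANP32B in Kasumi-1, the 500 spans had 4789207 bases against 4561728 in NC, a ratio of 1.05. The spans of all 9757 MV4-11 NC domains had 1.05 as well. All Kasumi-1 distal peaks, inside or outside such spans, had 1.08, which is not a like measure. Of the 492 spans with at least 500 bases in a Kasumi-1 library, 345 (70.1%) were longer and 143 (29.1%) shorter in sh-ANP32B, against 54.5% and 28.6% of all such MV4-11 NC domains. In the 500 domains ranked next, 322 of 476 such spans were longer and 141 shorter. A span wholly under peaks in both Kasumi-1 lists counted as equal, which a short span reaches more easily, so the background holds more ties. Of the 492, at most 0.5 of the NC length was left in 4, against a background of 1.93%, and at least 2 times in 2, against 3.43%. Among the 4, PIM3, RALGDS and the span over TPD52L2 and DNAJC5 had more bases in sh-ANP32B once promoter peaks were counted (12725 and 13038 for PIM3). The summed ratio was thus below 1 in MV4-11 (0.843) and above 1 in Kasumi-1 (1.05). Of the 491 domains whose length differed between the libraries of each line, 297 were shorter in MV4-11 sh-ANP32B and longer in Kasumi-1 sh-ANP32B, 123 were shorter in both, 50 longer in both and 21 longer in MV4-11 only. This split was not counted over all MV4-11 NC domains. With 428 of the 500 shorter in MV4-11 and 345 of 492 longer in Kasumi-1, a large first class follows from these shares alone. An association between the lines was not tested, and the split is not read as an opposite response of single domains. The shortest peaks had 289 (NC) and 275 bases (sh-ANP32B) in MV4-11 and 357 and 354 in Kasumi-1. With a common minimum of 357 bases and a common joining gap of 358 bases in each list, the median MV4-11 ratio was 0.843 and the summed Kasumi-1 ratio 1.05.

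**Figure D4:**
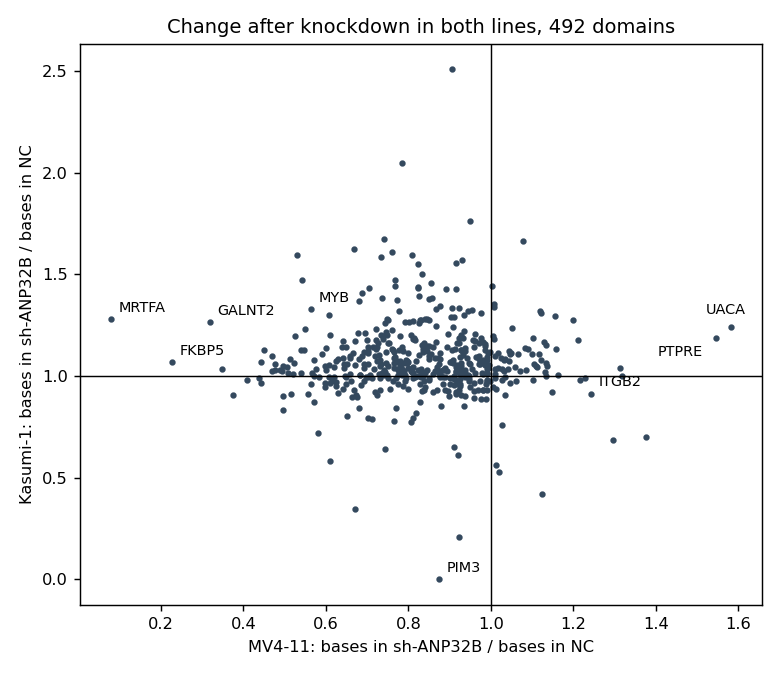
Ratio of bases in sh-ANP32B to bases in NC for 492 domains, in MV4-11 (x axis) and Kasumi-1 (y axis), with lines at 1. Most points lie left of the vertical line and close to or above the horizontal one; PIM3, at 0 in Kasumi-1, is there because its Kasumi-1 sh-ANP32B peak reached a promoter window.

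Motif letters were counted in the middle 300 bases of the longest peak of each domain, on both strands, and the same bases could count for more than 1 motif. The PU.1 core GAGGAA was in 30% of the 500 windows (26.1 to 34.2%) against 34.2% (33.3 to 35.2%) of windows of other domains. The RUNX core TGTGGT was in 24.6% against 25.2%, the letters TGACAG of MEIS in 22.4% against 19.7% and the MYC E-box CACGTG in 5.6% against 4.85%. The share was lower than elsewhere, with intervals that did not overlap, for C/EBP (TTGCNNAA, 14.6%, 11.8 to 18.0%, against 20.7%, 19.8 to 21.5%), for AP-1 (TGANTCA, 10.2%, 7.84 to 13.2%, against 17.2%, 16.4 to 18.0%) and for the GATA letters AGATAA (12.2%, 9.62 to 15.4%, against 16.2%, 15.5 to 17.0%). For PU.1, RUNX, MEIS, the E-box and the IRF repeat (3.2% against 5.01%) the intervals overlapped. In the 500 domains ranked next, the C/EBP share was 16.4% (13.4 to 19.9%), the AP-1 share 12.6% (9.97 to 15.8%) and the GATA share 14.6% (11.8 to 18.0%). These 3 intervals overlapped those of the 500 longest domains. The windows of the 500 longest also had a higher GC content than those of all other domains, with a median of 50.3% against 46%. The part of GC content and of peak length in these shares was not tested. Median GC was 37.5% in the 14 domains under 10% in Kasumi-1 NC and 54% in the 174 at 100% or more. A match is a description of letters and not a bound site.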

How the data were processed

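H3K27ac CUT&Tag (antibody ab4729) was done in MV4-11 and Kasumi-1 cells. Of 6 samples, the 4 H3K27ac libraries have a peak list, and the 2 IgG libraries were not analysed here. Groups were taken from the labels. By the methods of the study, the authors aligned reads to hg38 with Bowtie2 v2.2.5, removed duplicates with Picard, merged replicates with samtools v1.15.1 and called peaks at a q-value of 0.01 using MACS2 v2.2.7. The submitters' processing notes instead name Bowtie2 2.4.4 and MACS3 3.0. The deposited values are the start, end and length of each peak in bases, with no height, score or read number. Peak length depends on sequencing depth and on the threshold of the caller, so it is no measure of signal.

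Members and gene lists were chosen with earlier results of these data known. Distal peaks were stitched and followed as described above, with starts from GENCODE v44 and sequence from hg38, in Python 3.11.15 (numpy 2.4.6, scipy 1.17.1, pysam 0.24.0), and the steps were tested on simulated data. Named domains were the 12 longest, the 6 lowest and 6 highest MV4-11 ratios, up to 5 with no Kasumi-1 base, the 5 longest in Kasumi-1 NC, the top 3 per gene list, those at the threshold and the genes the study followed. Those named beyond this rule, among them the 13 other domains at most 0.5 of NC and the domains under 10% in Kasumi-1, were chosen after their values were seen. Shares have Wilson 95% intervals, which cover counting error only. A 2-fold call in Kasumi-1 needed 500 bases in 1 of its libraries. Tried were 12 alternatives, 1 of them added after the data were seen. Some items that the rule names are not reported here.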

Additional observations from a re-analysis of the deposited data

Results flagged for a closer look

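Some results differed between the lines, with every value coming from 1 library per group, so that the difference itself was not tested. Over the 500 spans the summed ratio of sh-ANP32B to NC was 0.843 in MV4-11 and 1.05 in Kasumi-1. Of 491 domains that differed in both lines, 297 were shorter with sh-ANP32B in MV4-11 and longer in Kasumi-1. The share over all domains was not counted, and most domains were shorter in MV4-11 and longer in Kasumi-1 when each line was taken alone. Of the named domains with that pattern, only those at most 0.5 of NC in MV4-11 are listed here. Others had MV4-11 ratios closer to 1, such as the RUNX1 domain of rank 15 (0.934) and CD93 (0.927). In the listed domains the MV4-11 ratio was 0.0799 for MRTFA, 0.228 for FKBP5, 0.319 for GALNT2, 0.348 for TMTC4, 0.443 for IFNAR2 and 0.451 for TNFAIP8. It was 0.470 for both PAG1 (0.469775) and INSIG1 (0.46983), 0.476 for ARRB1, 0.477 and 0.494 for the MAD1L1 domains of ranks 111 and 222, 0.489 for KCNK5 and 0.495 for ABR. Outside the chromosomes used, the MV4-11 NC list held 886 peaks on other sequences, which entered no comparison.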

How the results depend on the processing

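No paired analysis was possible because each group has 1 library. Of 83 values under 12 alternatives, 66 stayed within 1.5 times the value reported (for the median, within its 95% interval of 0.823 to 0.863), 17 moved further and 0 reversed. The number of domains at most 0.5 of NC in MV4-11 sh-ANP32B (19 as reported) was 42 when domains were ranked by span, 6 for the top 250, 66 for the top 1000 and 4 for domains built from both MV4-11 lists, an alternative chosen after seeing the data. The median ratio (0.839) was 0.808 by span, 0.823 for the top 1000, 0.779 when only NC peak positions counted and 0.910 from both lists. The number without a distal Kasumi-1 NC peak (7) was 16 at a stitching distance of 5000 bases, 11 with starts of every gene type, 14 by span, 1 for the top 250, 30 for the top 1000 and 14 with peaks of at least 500 bases. The overlap with the longest MV4-11 sh-ANP32B domains (404, 80.8%) was 194 for the top 250 (77.6%) and 811 for the top 1000 (81.1%), so that the number changed with the number of domains, and 348 (69.6%) by span. The share of distal bases (28.4%) was 18.5% for the top 250 and 41.8% for the top 1000. When only NC peak positions counted, 27 domains were at most 0.5 of NC and Kasumi-1 NC had 62.6% of the MV4-11 NC bases (82.9% as reported). The depth of the libraries is unknown, so no limit of detection can be given.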

Other observations

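Some domains were among the 500 longest of MV4-11 sh-ANP32B without overlapping one of the 500 of MV4-11 NC. There were 96, and since they were chosen for their length in sh-ANP32B a higher value there follows in part from the choice. CD44, a hyaluronan receptor, had 6379 bases in MV4-11 NC and 11274 with sh-ANP32B. SLC2A1, a glucose transporter, had 5885 and 9425 bases. GFI1, a repressor that steers granulocyte fate, had 5601 and 9125.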
